A study of Ogataea parapolymorpha with 8 samples.

Results

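Protein kinases are enzymes that move phosphate from ATP onto other proteins and so carry most of the signals that tell a yeast cell how much sugar, nitrogen or stress it faces. The protein kinase genes of Ogataea parapolymorpha, a thermotolerant methylotrophic yeast, were taken as the genes whose annotated transcript carries the Pfam protein kinase domain. Of 5428 annotated genes 94 hold that domain, and 93 of them (1.71% of all genes) are described here; 1 further gene holding the domain was left out by the rule and is not analysed here. The rule itself reads the annotation alone and no measured value. The classes, partner lists and members were, however, chosen with earlier results of these data known.

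In Saccharomyces cerevisiae, from which most of the names below are borrowed, SNF1 (the AMP-activated kinase of yeast) allows growth when glucose is scarce, while protein kinase A and the target of rapamycin (TOR) pathway promote growth when sugar and nitrogen are plentiful. Mitogen-activated protein (MAP) kinases form relays of kinases that answer mating signals, osmotic stress and damage to the cell wall. Cyclin-dependent kinases and their relatives drive division and transcription. Many of these enzymes are controlled by phosphorylation, partner proteins and localization, none of which a transcript level shows.

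Polyadenylated RNA from bioreactor cultures gave 8 libraries, with 2 for each of 4 groups. Wild-type cultures, of strain CBS11895, were chemostats held at pH 6 with a dilution rate of 0.1 per h, on a synthetic medium with urea to which Tween 80, ergosterol (10 mg/L) and the antifoam pluronic acid had been added. Glucose was at 20 g/L and Tween 80 at 420 mg/L for the libraries labelled micro-aerobic, and at 7.5 g/L and 84 mg/L for the libraries labelled aerobic. The mutant cultures were of strain IMX2167, whose label gut2Δ ndi/ndeΔ stands for deletion of a mitochondrial glycerol-3-phosphate dehydrogenase and of type II NADH dehydrogenases. They were aerobic on synthetic medium with 7.5 g/L glucose, with one group taken from batch cultures (pH 6) and the other from chemostats (pH 5, dilution rate 0.1 per h). Oxygen label, glucose and Tween 80 differ together between the wild-type groups, growth mode and pH differ together between the mutant groups, and genotype, pH and medium additions differ together between mutant chemostat and wild type, with glucose and the oxygen label besides where the wild type is that labelled micro-aerobic, so their parts cannot be told apart.

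The libraries held 6104949 to 11126081 counts in genes, and the kinase genes took 0.838% to 1.24% of them. Levels below are CPM, read-pair counts divided by library sizes that were scaled by TMM, a normalization that equalizes the bulk of genes. They are shares of a library and do not show the RNA content of a cell. In the mutant GUT2 was at 110.9 and 94.81 CPM in batch and 29.81 and 27.32 CPM in the chemostat, against 339.5 to 392.8 CPM in the wild type, so it was lower but present. NDE1, a type II NADH dehydrogenase, was at 5.342 and 4.548 CPM in batch and 0.4919 and 0.5306 CPM in the chemostat, against 49.67 to 72.12 CPM in the wild type. Genes that respond to oxygen and sugar in S. cerevisiae went against the wild-type oxygen labels. ERG11, a sterol synthesis gene that S. cerevisiae raises when oxygen is low, was at 11160 and 12410 CPM in the libraries labelled aerobic and at 292.6 and 291.0 CPM in those labelled micro-aerobic. CIT1, the citrate synthase of respiration, was at 176.2 and 176.6 CPM in the libraries labelled aerobic and at 7021 and 7476 CPM in those labelled micro-aerobic. Both groups are therefore called by their labels, and if the labels had been exchanged, every change between these groups would have the other sign and both comparisons with the mutant chemostat would trade places.

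All 93 kinase genes passed the filter on low counts, and the fewest counts of any of them in a library were 28. Homologs in S. cerevisiae are annotated for 76, whose symbols are used here, and 17 have none and keep their gene ID, apart from OPAR_003035, which the annotation itself names TPK3. A symbol names the closest homolog and does not settle which member of a family the gene is. The genes lie on all 7 chromosomes, with 5 on chromosome 3 and 18 each on chromosomes 5 and 7. In 89 of them the coding sequence sits in 1 exon, and PRR1, HOG1, CDC28 and RCK2 have 2 exons. Their proteins run from 226 residues (SSN3) to 1497, with a median of 590. A second kinase signature, the Pfam domain that covers tyrosine kinases, was matched in 90, and 26 carry some further domain. FUS3, OPAR_002198 and RAD53 overlap a neighbouring gene by at most 26 bp, and reads in the shared bases cannot be assigned to one gene. SMK1, a kinase of spore formation in S. cerevisiae, and VPS15 lie next to each other on the plus strand of chromosome 4 with 98 bp between them.

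Kinase transcripts were mostly of low to moderate abundance. Their median level over the 4 groups was 42.21 CPM per kb of gene, against 57.74 for all 5265 genes tested, and 34 of the 93 lay above the median of all genes. RIM11, a glycogen synthase kinase 3, had the highest level at 341.0 CPM per kb, followed by the casein kinase HRR25 (315.6), the LAMMER kinase KNS1 (314.7), FMP48 (261.2) and the osmotic MAP kinase HOG1 (198.2). HRR25 and KNS1 lie closer to each other than the libraries of a group do for either gene, so their order is not settled. At the other end stood OPAR_002495 at 7.118, OPAR_002198 at 7.428 and VPS15, the regulatory subunit of the vacuolar phosphatidylinositol 3-kinase, at 7.597 CPM per kb. These 3 differ by less than the libraries of some groups do for each gene, so their order is not settled either.

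**Figure D1:**
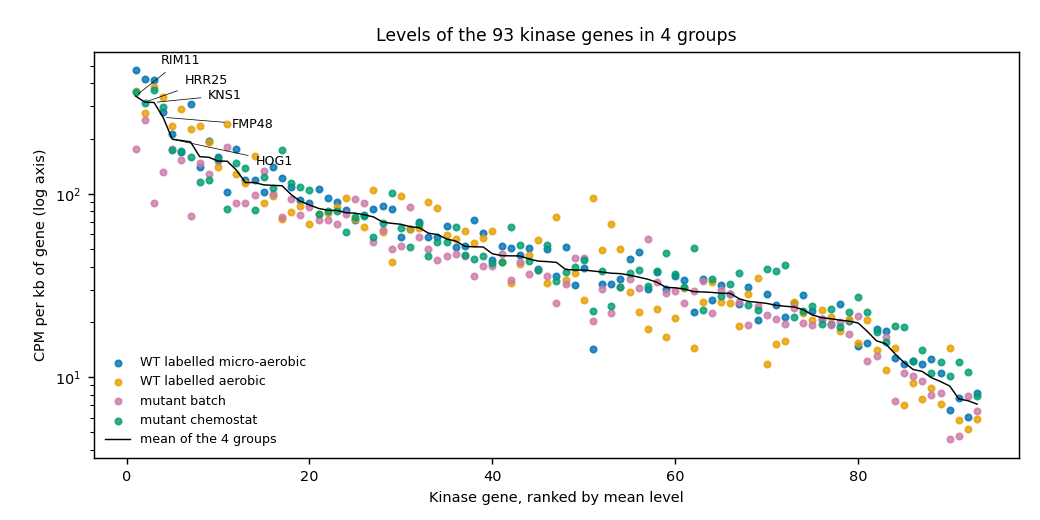
Level of each of the 93 kinase genes in CPM per kb of gene on a log axis, ranked by the mean over the 4 groups (line), with each group's mean of 2 libraries as a point. The levels run from 7.118 to 341 CPM per kb, and several of the most abundant genes have their mutant batch point far below the line.

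Most kinase genes varied among the 4 groups, but within a narrow band. In the quasi-likelihood F test of edgeR, adjusted by Benjamini-Hochberg over all genes, 70 of the 93 (75.3%) differed among the groups at an adjusted p below 0.05, the threshold for every call below, beside 78.8% of all genes tested. The ratio of the highest to the lowest group mean had a median of 1.614, against 1.827 over all genes, and was under 1.5 in 34 kinase genes and at least 2 in 25. It was 4 or more in 3 members: SKS1, KNS1 and KSP1. The pairwise comparisons called 27 kinase genes in none and 7 in all 4 of them. These counts, and those of the ratio by size, were not made over all genes. Whether they are particular to kinases was therefore not tested. Among the 27 were SCH9, RIM15, SAK1, the MAP kinase FUS3, the checkpoint kinases RAD53 and DUN1, the casein kinase gene CKA2 and the division kinase CDC7. Batch was not compared with either wild-type group. Some of the 27 did differ in the F test among the groups, such as CKA2 (adjusted p = 0.0464).

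**Figure D2:**
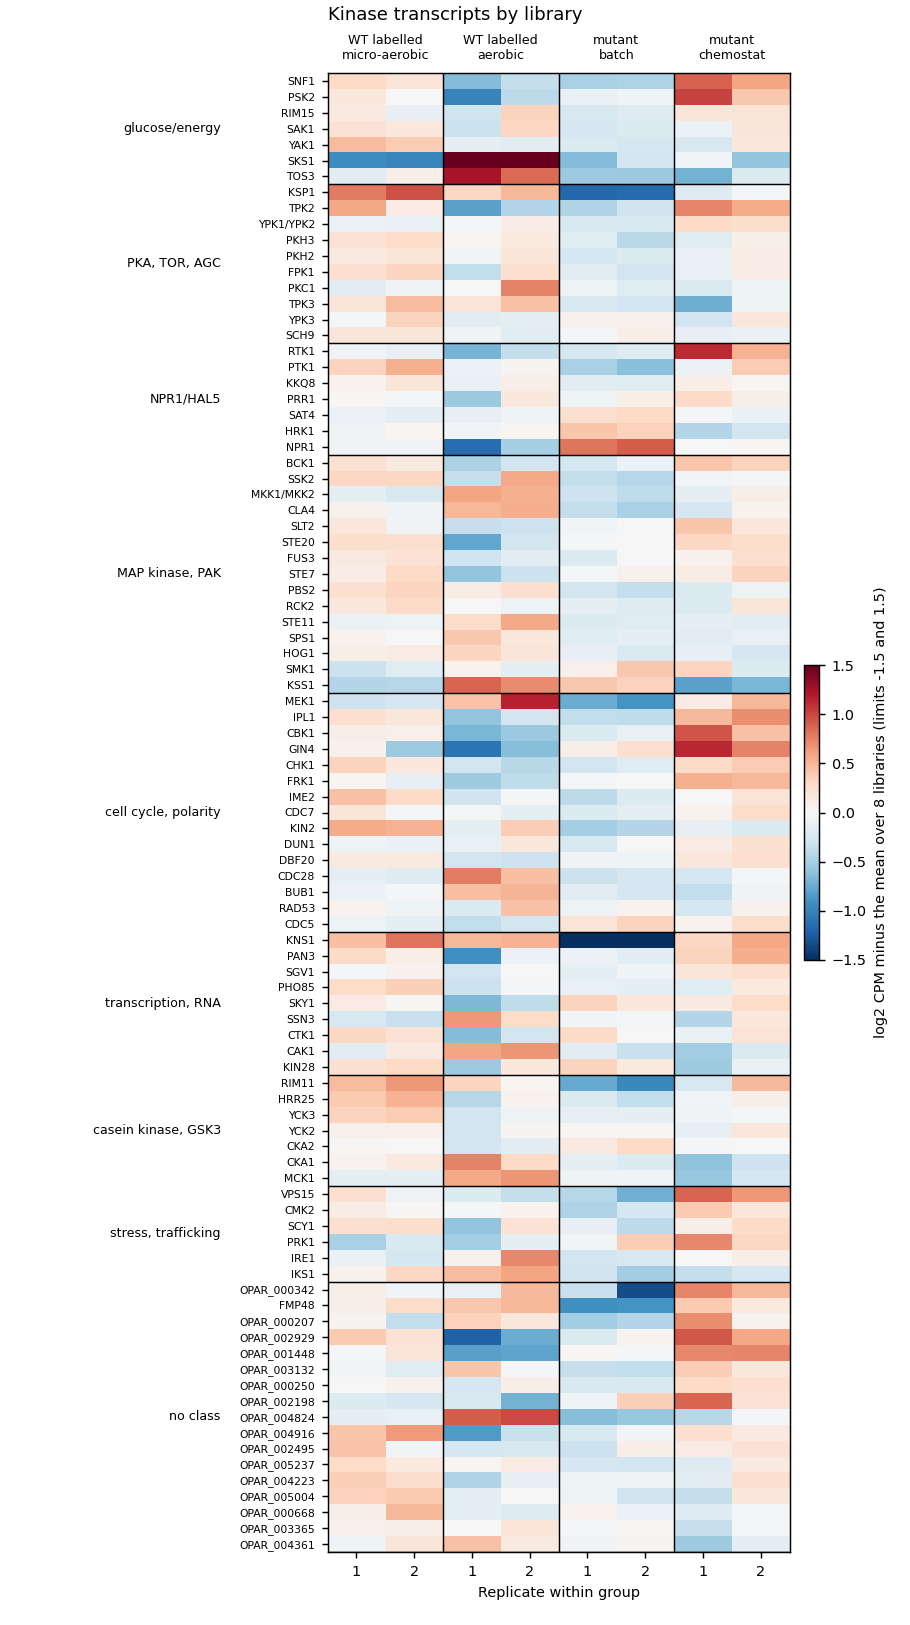
Kinase transcripts in each of the 8 libraries, as log2 CPM minus the gene's mean over the 8, with colours limited at -1.5 and 1.5. Rows are the 93 genes grouped by the role of their homolog and ordered within a group by their change between mutant batch and chemostat; KNS1, KSP1 and FMP48 are low in both batch libraries, and SKS1 is high in both libraries labelled aerobic.

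As a group, kinase transcripts were lowest in the batch culture. Their summed level was 8317 and 8284 CPM in the 2 batch libraries, against 10180 and 11040 CPM in the mutant chemostat, 11290 and 11780 CPM in the wild type labelled micro-aerobic and 10450 and 11470 CPM in that labelled aerobic. Both batch libraries lay below all the others. KNS1, KSP1, RIM11 and FMP48, chosen for this after their values were seen, together made 729.5 and 693.3 CPM of the batch sums and 1696 to 2599 CPM in the other libraries. The other 89 genes summed to 7587 and 7591 CPM in batch and to 8370 to 9371 CPM elsewhere, so batch was lowest without those 4 as well. The batch mean was the lowest of the 4 groups for 41 kinase genes (44.1%, against 23.9% of all genes) and the highest for 7 (7.53%, against 25.8%). The libraries labelled micro-aerobic held the highest mean for 32 kinase genes (34.4%, against 16.9% of all genes).

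Between the wild-type groups, 27 kinase genes were higher and 16 lower in the libraries labelled micro-aerobic than in those labelled aerobic. These are 29% and 17.2% of the members, where 23.2% and 22.3% of all genes tested were called higher and lower. A change of at least 2-fold was called in 7 members (7.53%), beside 16.8% of all genes. The median log2 change was 0.16 over the members and 0.02 over all genes, and the median size of the change was 0.41 in both. The members' median was 0.09 without replicate 1 of the libraries labelled aerobic, 0.27 without replicate 2 of them, and 0.26 with upper quartile normalization, which moved that of all genes to 0.12. Of the calls, 9 of the 27 rises and 7 of the 16 falls held whichever library was left out. Without either library labelled micro-aerobic, or without replicate 1 of those labelled aerobic, fewer kinase genes were called, and fewer of all genes as well. In the last of these fits rises no longer outnumbered falls among the kinase genes.

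Between the mutant groups most calls were falls. In batch 5 kinase genes were higher and 26 lower than in the mutant chemostat, or 5.38% and 28% of the members, where 24.5% of all genes were higher and 26.8% lower. A change of at least 2-fold was called in 11 members (11.8%), where 17.3% of all genes had one. The median log2 change was -0.26 over the members and -0.02 over all genes. Of these calls 3 of 5 rises and 14 of 26 falls held in every fit without 1 library. Without either batch library fewer kinase genes were called, and fewer of all genes as well. Falls still outnumbered rises among the kinase genes.

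In the mutant chemostat 25 kinase genes were higher and 21 lower than in the wild type labelled aerobic (26.9% and 22.6% of the members, where 31.3% and 29.4% of all genes were called). A change of at least 2-fold was called in 16 members (17.2%, against 25.1% of all genes). Of these calls 22 rises and 15 falls held in every fit without 1 library. The split between directions moved with the scaling: with upper quartile normalization 34 were higher and 16 lower, and that scaling also moved the median of all genes from 0.03 to 0.21. The median of the members was 0.13, and 0.31 with that scaling. It was 0.04 without replicate 1 and 0.24 without replicate 2 of the libraries labelled aerobic, and 0.05 without chemostat replicate 2.

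The fewest calls came when the mutant chemostat was set against the wild type labelled micro-aerobic. There 12 kinase genes were higher and 8 lower (12.9% and 8.6%, where 13.7% and 13.4% of all genes were called), and 13 and 5 with upper quartile normalization. GIN4 was the member called with a change of at least 2-fold (1.08% of the members, where 5.01% of all genes had one). The median log2 change was -0.04 over the members and 0.01 over all genes, and the members' median turned to 0.04 with upper quartile normalization and without chemostat replicate 1, and was -0.10 without chemostat replicate 2 and -0.01 without micro-aerobic-labelled replicate 2. Only GIN4 among the rises and KSP1 among the falls held in every fit without 1 library. Fewer kinase genes were called without either library labelled micro-aerobic or without chemostat replicate 1, and more without chemostat replicate 2. The number of calls over all genes moved in the same direction each time. These comparisons share libraries: the mutant chemostat enters 3 of them and each wild-type group enters 2.

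**Figure D3:**
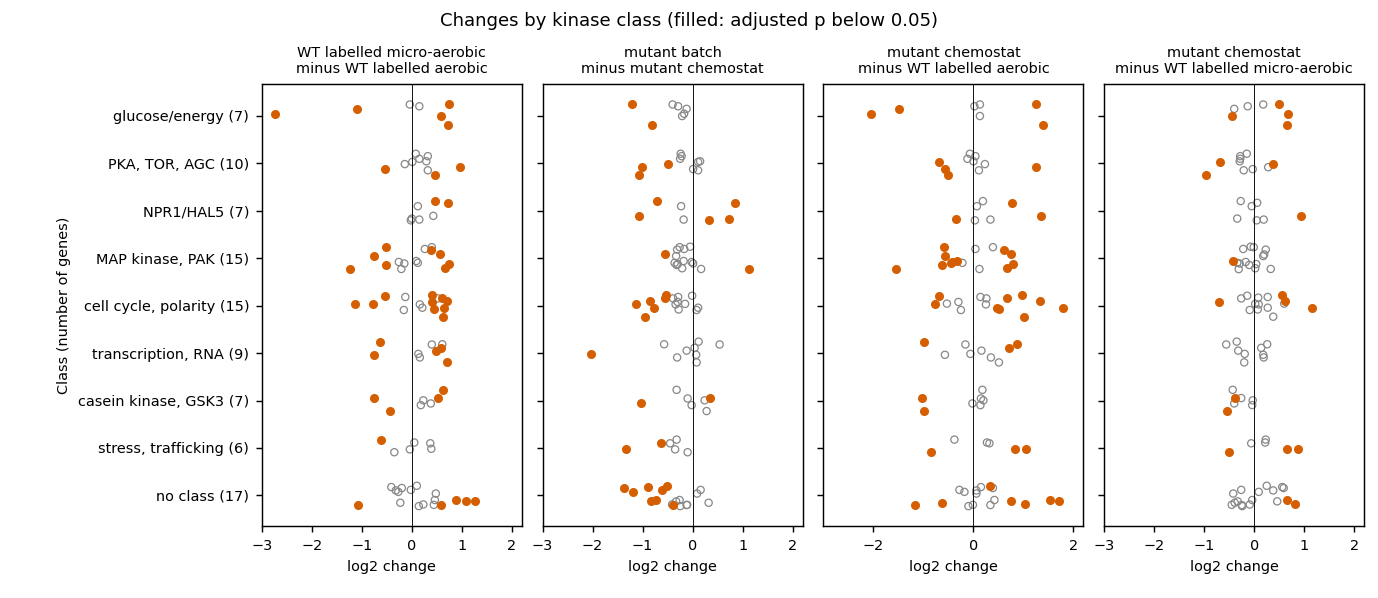
log2 change of each kinase gene in the 4 comparisons, by class of its S. cerevisiae homolog, with filled points for an adjusted p below 0.05. In the comparison of mutant batch with mutant chemostat 26 filled points lie left of 0 and 5 right of it.

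Kinases are long genes, and replicates differed by gene length in places. The median kinase gene measured 1863 bp, against 1230 bp over all genes tested. In the libraries labelled aerobic the median log2 difference of replicate 1 from replicate 2 was 0.17 over genes under 1 kb and -0.26 over genes of 3 kb and more, and it was -0.15 over the kinase genes. In the other groups this difference stayed within 0.06 of 0 for all genes in each length range, while over the kinase genes it was -0.13 in the mutant chemostat. The batch change by length was 0.07 over all genes under 1 kb, -0.04 from 1 to 2 kb, -0.11 from 2 to 3 kb and -0.16 above. The kinase genes had medians of -0.36, -0.23, -0.25 and -0.36 in the same ranges, each below that of all genes. The part of length in single results was not tested.

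The glucose and energy kinases number 7. SNF1 (OPAR_000105, chromosome 1, 171189 to 172923, minus strand, 1 exon) was at 220.5 and 204.1 CPM in the libraries labelled micro-aerobic, 113.8 and 139.2 CPM in those labelled aerobic, 128.2 and 129.4 CPM in mutant batch and 329.6 and 270.9 CPM in mutant chemostat. Its transcript was thus highest in the mutant chemostat and next in the libraries labelled micro-aerobic, with no overlap between these and the rest, while batch lay inside the range of the libraries labelled aerobic. SNF1 rose by 0.75 ± 0.15 on the log2 scale (SE; adjusted p = 0.00099) between the wild-type groups, and by 1.25 ± 0.15 (adjusted p = 9.2e-06) from the wild type labelled aerobic to the mutant chemostat, and it fell by 1.22 ± 0.15 (adjusted p = 1.4e-05) in batch. These 3 calls held in each fit without 1 library. The call of 0.50 ± 0.14 between mutant chemostat and the libraries labelled micro-aerobic (adjusted p = 0.0239) was lost without either of the latter (adjusted p = 0.0795 and 0.203) and without chemostat replicate 1 (0.148).

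TOS3 and SAK1 are kinases that activate SNF1 in S. cerevisiae by phosphorylating it. TOS3 (OPAR_003297, chromosome 5, 902565 to 904337, minus strand) was at 52.0 and 62.12 CPM in the libraries labelled micro-aerobic, 137.5 and 105.1 CPM in those labelled aerobic, 39.89 and 39.71 CPM in batch and 35.71 and 50.49 CPM in the mutant chemostat. Its highest libraries were those labelled aerobic, where SNF1 was low. TOS3 fell by 1.09 ± 0.19 (adjusted p = 0.00036) between the wild-type groups and by 1.49 ± 0.19 (adjusted p = 1.7e-05) from the wild type labelled aerobic to the mutant chemostat. SAK1 ranged from 70.94 to 109.8 CPM over all libraries and passed no test, with adjusted p from 0.194 to 0.917.

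SKS1, a kinase tied to growth at low glucose and to filament formation in S. cerevisiae, showed the widest range of all members. SKS1 (OPAR_000025, chromosome 1, 51713 to 53146, plus strand) was at 119.9 and 150.4 CPM in the libraries labelled aerobic. The other libraries had 20.74 and 20.12 CPM (labelled micro-aerobic), 25.34 and 32.62 CPM (batch) and 38.86 and 26.53 CPM (mutant chemostat). Each library labelled aerobic was above 3 times any other library's level of SKS1. SKS1 fell by 2.73 ± 0.22, or 6.618-fold, between the wild-type groups (adjusted p = 1.9e-07) and by 2.05 ± 0.20 from the wild type labelled aerobic to the mutant chemostat (adjusted p = 1.6e-06).

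PSK2, a PAS-domain kinase that steers sugar use, was at 38.44 and 34.18 CPM in the libraries labelled micro-aerobic, 17.16 and 26.2 CPM in those labelled aerobic, 31.82 and 32.97 CPM in batch and 69.26 and 45.36 CPM in the mutant chemostat. It rose by 1.39 ± 0.24 from the wild type labelled aerobic to the mutant chemostat (adjusted p = 0.00021), a call that every fit without 1 library kept. Its rise of 0.73 between the wild-type groups (adjusted p = 0.0243) was lost without either library labelled micro-aerobic (0.133 and 0.0567) or replicate 1 of those labelled aerobic (0.185). YAK1, which slows growth and opposes protein kinase A, had its highest values in the libraries labelled micro-aerobic (116.6 and 109.7 CPM, against 70.15 to 93.91 CPM elsewhere), and its rise of 0.59 there (adjusted p = 0.00611) was lost without replicate 1 of them (0.0553). RIM15, a kinase of entry into quiescence, lay between 69.98 and 108.4 CPM and passed no test.

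Genes that work with SNF1 were followed by a list of 6 measured partners and targets. ADR1, a transcription factor of S. cerevisiae that needs SNF1 to activate its genes, was at 786 and 829 CPM in the libraries labelled micro-aerobic, 185.4 and 216.7 CPM in those labelled aerobic, 186.8 and 185.9 CPM in batch and 400.6 and 409.7 CPM in the mutant chemostat. Like SNF1, it was higher in the mutant chemostat and under the micro-aerobic label than in the other groups. ADR1 rose by 2.01 ± 0.13 between the wild-type groups and fell by 1.12 ± 0.13 in batch (adjusted p = 2.9e-08 and 1.1e-05). CAT8, another SNF1-dependent factor, rose by 1.36 ± 0.16 between the wild-type groups (adjusted p = 1.3e-05). SNF4, the gamma subunit of the SNF1 complex, fell by 0.62 ± 0.14 in batch (adjusted p = 0.002). In all, 2 of the 6 rose and none fell between the wild-type groups (median 0.25), where 23.2% of all genes rose and 22.3% fell. In batch none rose and 3 fell (median -0.38), beside 24.5% and 26.8% of all genes, and without either batch library 2 fell. From the libraries labelled micro-aerobic to the mutant chemostat none rose and 3 fell (median -0.37), beside 13.7% and 13.4%. These were ADR1 (-0.99, adjusted p = 0.00013), CAT8 (-0.73, adjusted p = 0.00521) and REG1, a phosphatase subunit that acts on SNF1 (-0.46, adjusted p = 0.027). Without micro-aerobic-labelled replicate 2 the test called 1 of the 3.

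**Figure D4:**
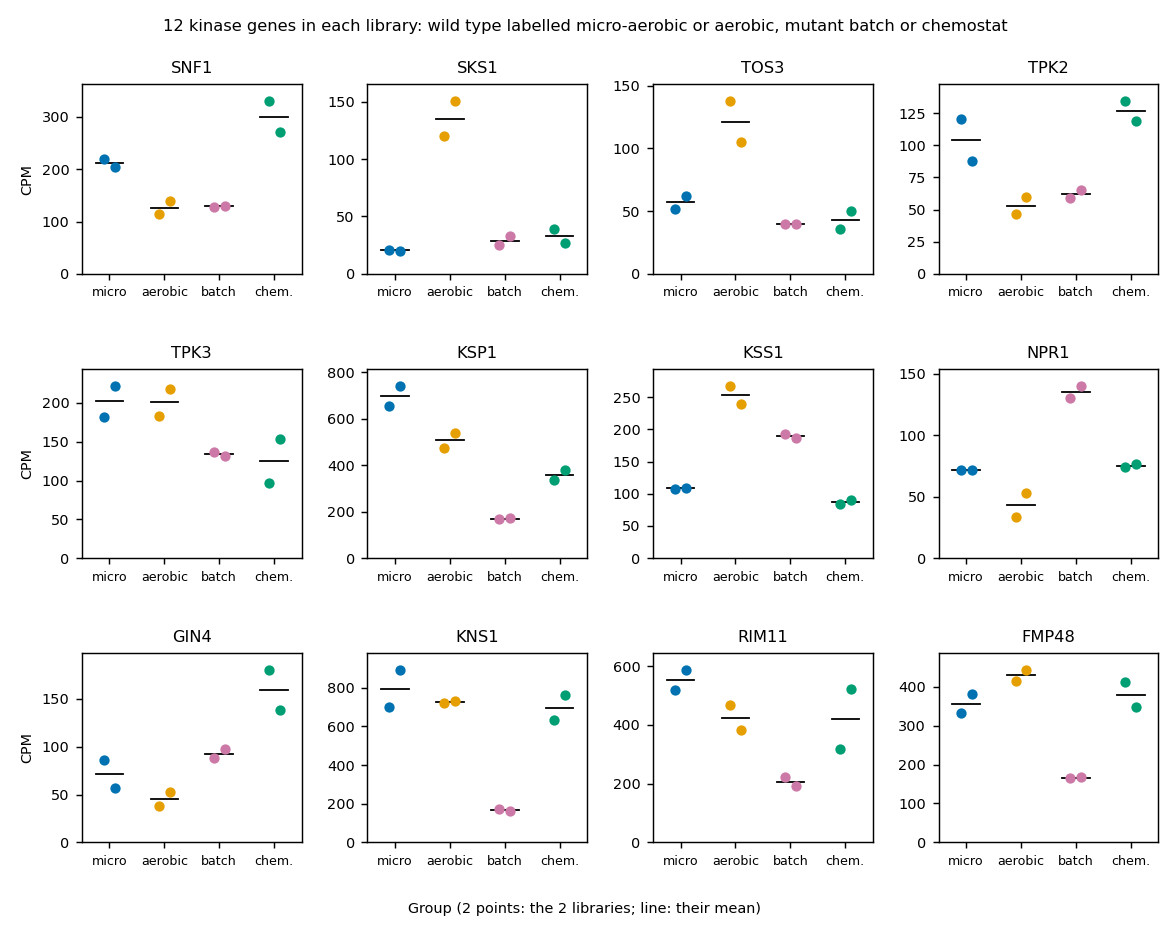
CPM of 12 kinase genes in each library on axes that start at 0, with both libraries of a group as points and their mean as a line. SNF1 and TPK2 are high in the mutant chemostat and the libraries labelled micro-aerobic, SKS1 and TOS3 in those labelled aerobic, NPR1 in batch and GIN4 in the mutant chemostat, while KNS1, KSP1, RIM11 and FMP48 are low in batch.

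The class of protein kinase A, TOR-linked and other AGC kinases has 10 members. Catalytic subunits of protein kinase A are represented by TPK2 (OPAR_000756, chromosome 2, 229842 to 231095, plus strand) and TPK3 (OPAR_003035, chromosome 5, 430435 to 431481, minus strand). TPK2 was at 120.8 and 87.52 CPM in the libraries labelled micro-aerobic, 46.15 and 59.66 CPM in those labelled aerobic, 59.1 and 65.42 CPM in batch and 134.1 and 118.7 CPM in the mutant chemostat. TPK3 was at 182.3 and 222.1 CPM, 183.6 and 217.8 CPM, 137.2 and 131.7 CPM, and 96.61 and 153.2 CPM in the same groups. TPK2 followed the order seen for SNF1, with chemostat and micro-aerobic label above the rest, while TPK3 was alike in both wild-type groups and lower in both mutant groups.

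TPK2 rose by 0.97 ± 0.18 between the wild-type groups (adjusted p = 0.00058), rose by 1.25 ± 0.18 from the wild type labelled aerobic to the mutant chemostat (adjusted p = 4.6e-05) and fell by 1.02 ± 0.17 in batch (adjusted p = 0.00027). TPK3 fell by 0.68 ± 0.19 from the wild type labelled aerobic to the mutant chemostat (adjusted p = 0.0071). That call was lost without replicate 2 of the libraries labelled aerobic (0.06) and without chemostat replicate 1 (0.0612). Whether the 2 genes share reads was not tested, since their sequences were not used here.

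KSP1, a kinase tied to TOR signalling and filament formation in S. cerevisiae, was among the abundant members with a graded pattern. KSP1 (OPAR_002700, chromosome 4, 1188035 to 1190287, minus strand) was at 652.3 and 740.9 CPM in the libraries labelled micro-aerobic, 473.5 and 537.8 CPM in those labelled aerobic, 334.8 and 377.9 CPM in the mutant chemostat and 168.1 and 170.7 CPM in batch. No 2 of these groups overlapped. It fell by 1.07 ± 0.14 in batch (adjusted p = 2.5e-05) and by 0.97 ± 0.14 from the libraries labelled micro-aerobic to the mutant chemostat (adjusted p = 0.00025). The rise of 0.46 between the wild-type groups (adjusted p = 0.013) was lost without micro-aerobic-labelled replicate 2 (0.128) or replicate 1 of those labelled aerobic (0.0699).

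YPK1/YPK2, the kinase that TOR complex 2 activates, was at 127.3 and 124.2 CPM in the mutant chemostat and 88.53 and 88.69 CPM in batch, with the wild type between at 96.94 to 112.2 CPM. It fell by 0.50 ± 0.12 in batch (adjusted p = 0.00405), which was lost without either batch library (0.0617 and 0.0581). SCH9, the kinase that TOR complex 1 activates, stayed between 82.07 and 104.8 CPM and passed no test. PKC1, which starts the cell wall integrity relay, was at 220.6 CPM in replicate 2 of the libraries labelled aerobic and at 113.3 to 130.4 CPM in all the others. Its falls of 0.53 from that group to the libraries labelled micro-aerobic and of 0.56 to the mutant chemostat (adjusted p = 0.0397 and 0.0229) rested on that library and had adjusted p of 0.58 and 0.426 without it.

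Of 8 measured partners and targets of protein kinase A 6 fell and 1 rose in batch (beside 26.8% and 24.5% of all genes), and the median was -0.50. Without either batch library 2 fell, CDC25 and PDE2, and none rose. CDC25, the exchange factor that switches RAS on, was at 50.23 and 49.15 CPM in batch and 131.1 and 91.17 CPM in the mutant chemostat, a fall of 1.16 ± 0.19 (adjusted p = 0.00024). PDE2, the phosphodiesterase that breaks cyclic AMP down, fell by 1.03 ± 0.16 (adjusted p = 0.00013). IRA1, which switches RAS off, was at 181.3 and 194.7 CPM in the libraries labelled aerobic and at 67.61 to 100.6 CPM elsewhere, and it fell by 0.92 ± 0.13 to the libraries labelled micro-aerobic (adjusted p = 5.8e-05).

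Among 8 measured subunits and effectors of the TOR complexes 3 rose and none fell between the wild-type groups (median 0.43), where 23.2% of all genes rose and 22.3% fell. It was 2 without either library labelled micro-aerobic or without replicate 1 of those labelled aerobic. TSC11, a subunit of TOR complex 2, was at 202.3 and 233.6 CPM in the libraries labelled micro-aerobic, 34.52 and 62.02 CPM in those labelled aerobic, 61.26 and 63.85 CPM in batch and 129.3 and 136.9 CPM in the mutant chemostat. It rose by 2.17 ± 0.21 between the wild-type groups (adjusted p = 1.4e-06) and fell by 1.09 ± 0.20 in batch (adjusted p = 0.00047). SIT4, a phosphatase that acts under TOR complex 1, rose by 0.63 ± 0.15 in batch (adjusted p = 0.00409) and fell by 0.99 ± 0.16 from the wild type labelled aerobic to the mutant chemostat (adjusted p = 1e-04).

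The 7 kinases of the NPR1 and HAL5 family, some of which set the activity of transporters in the plasma membrane, held 3 of the 5 batch rises of all members and 2 falls (42.9% and 28.6% of the family, beside 24.5% and 26.8% of all genes), and the family's median was -0.18. Without either batch library 2 rose. NPR1 (OPAR_002169, chromosome 4, 337438 to 339823, minus strand), which controls ammonium and amino acid uptake in S. cerevisiae, was at 130.5 and 140.3 CPM in batch, 74.08 and 76.23 CPM in the mutant chemostat, 72.1 and 71.87 CPM in the libraries labelled micro-aerobic and 33.75 and 53.03 CPM in those labelled aerobic. Both batch libraries were the highest and both libraries labelled aerobic the lowest. NPR1 rose by 0.85 ± 0.17 in batch (adjusted p = 0.00095), by 0.72 ± 0.18 between the wild-type groups (adjusted p = 0.00529) and by 0.78 ± 0.18 from the wild type labelled aerobic to the mutant chemostat (adjusted p = 0.00189). Without replicate 2 of the libraries labelled aerobic the last pair were 1.08 and 1.14, and without replicate 1 of them 0.44 and 0.50. The nitrogen source named in the labels, urea, is given for the wild type alone.

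HRK1, which activates the proton pump of the plasma membrane, was at 159.9 and 152.0 CPM in batch and 88.65 and 99.4 CPM in the mutant chemostat, with the wild type between at 115.2 to 122.5 CPM. Its batch rise of 0.73 ± 0.13 (adjusted p = 0.00034) held in each fit without 1 library. SAT4, which supports potassium uptake, was at 151.3 and 156.9 CPM in batch and 115.8 to 125.9 CPM elsewhere. Its rise of 0.33 (adjusted p = 0.035) was lost without either batch library (0.136 and 0.2), without chemostat replicate 2 (0.0672) and without either library labelled micro-aerobic (0.0633 and 0.0637).

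RTK1 and PTK1 fell in batch. RTK1 had 73.69 and 48.81 CPM in the mutant chemostat, 28.53 and 29.74 CPM in batch, 32.7 and 31.46 CPM in the libraries labelled micro-aerobic and 20.98 and 26.51 CPM in those labelled aerobic. It fell by 1.07 ± 0.20 in batch (adjusted p = 0.0007) and rose by 1.36 ± 0.21 from the wild type labelled aerobic to the mutant chemostat (adjusted p = 0.00011). Its rise of 0.93 over the libraries labelled micro-aerobic (adjusted p = 0.00694) was lost without replicate 2 of these (0.092) and without chemostat replicate 1 (0.0758). PTK1, which promotes polyamine uptake in S. cerevisiae, was at 210.6 and 192.2 CPM in batch, 278.8 and 386.3 CPM in the mutant chemostat, 372.8 and 429.3 CPM in the libraries labelled micro-aerobic and 277.6 and 305.4 CPM in those labelled aerobic. Both batch libraries were the lowest. PTK1 fell by 0.72 ± 0.16 in batch (adjusted p = 0.002), which every fit without 1 library kept, and the change was -0.47 without chemostat replicate 2. It was added after its values were seen.

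The MAP kinase relays and the PAK kinases above them have 15 members. In batch 1 of the 15 rose, 1 fell and 13 were not called, with a median of -0.21. Of all genes 24.5% rose and 26.8% fell there. Between the wild-type groups 4 rose and 4 fell (26.7% each, beside 23.2% and 22.3% of all genes), and from the wild type labelled aerobic to the mutant chemostat 4 rose and 7 fell (26.7% and 46.7%, beside 31.3% and 29.4%). Among the latter falls, HOG1 and PBS2 each lost their call in 3 alternatives other than leaving out a library, and SPS1 in 2. PBS2 changed there by -0.32 (adjusted p = 0.0431), and by -0.41 to -0.25 with 1 library left out. SPS1 was named after its values were seen. The rises between the wild-type groups were 1 without replicate 1 of the libraries labelled aerobic and 2 without either library labelled micro-aerobic. KSS1 (OPAR_005080, chromosome 7, 958116 to 959177, plus strand), the MAP kinase of filament formation in S. cerevisiae, was at 108.0 and 108.6 CPM in the libraries labelled micro-aerobic, 267.9 and 239.4 CPM in those labelled aerobic, 193.5 and 186.3 CPM in batch and 83.92 and 90.99 CPM in the mutant chemostat. No 2 groups overlapped, and the order was the reverse of that of SNF1 for the mutant pair and for the wild-type pair. KSS1 fell by 1.23 ± 0.13 between the wild-type groups (adjusted p = 3.7e-06), rose by 1.12 ± 0.13 in batch (adjusted p = 9.4e-06) and fell by 1.54 ± 0.13 from the wild type labelled aerobic to the mutant chemostat (adjusted p = 3.1e-07).

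STE20, the PAK kinase that starts the filament and mating relays, was at 46.53 and 65.81 CPM in the libraries labelled aerobic and at 78.08 to 98.98 CPM in all the others. It rose by 0.75 ± 0.16 between the wild-type groups (adjusted p = 0.00182), opposite in sign to KSS1. MKK1/MKK2, the middle kinase of the cell wall relay, was at 126.2 and 121.2 CPM in the libraries labelled aerobic and at 64.55 to 89.93 CPM elsewhere, and fell by 0.75 ± 0.14 to the libraries labelled micro-aerobic (adjusted p = 0.00057) and by 0.57 ± 0.14 to the mutant chemostat (adjusted p = 0.00246). SLT2, the MAP kinase below it, ranged from 88.29 to 149.5 CPM and rose by 0.62 ± 0.14 from the wild type labelled aerobic to the mutant chemostat (adjusted p = 0.0017). MKK1/MKK2 and SLT2 thus had opposite signs between those groups.

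In the osmotic relay HOG1 (OPAR_004776, chromosome 7, 459300 to 460392, plus strand) was at 228.8 and 233.5 CPM in the libraries labelled micro-aerobic, 268.3 and 243.4 CPM in those labelled aerobic, 197.3 and 184.3 CPM in batch and 197.4 and 180.4 CPM in the mutant chemostat. All 4 mutant libraries were below all 4 wild-type libraries. HOG1 fell by 0.44 ± 0.13 from the wild type labelled aerobic to the mutant chemostat (adjusted p = 0.00907). The call held without any 1 library. It was lost with upper quartile normalization (0.0863), a replicate block (0.0542) and the 4 compared libraries alone (0.0703). That block set all wild-type libraries together with mutant replicate 1, so it is no adjustment for replicate between these groups. PBS2, the kinase that activates HOG1, was at 138.3 and 146.0 CPM in the libraries labelled micro-aerobic and at 101.5 and 111.5 CPM in the mutant chemostat. Its fall of 0.42 between them (adjusted p = 0.0306) was lost without either library labelled micro-aerobic (0.094 and 0.218), either batch library (0.0688 and 0.0686) or chemostat replicate 1 (0.121).

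Among 11 measured sensors, scaffolds, phosphatases and targets of these relays 6 fell and none rose in batch (54.5% and 0%, beside 26.8% and 24.5% of all genes), with a median of -0.51. The falls were 2 without either batch library, GPA1 and SLN1, and 3 without chemostat replicate 1. GPA1, the G protein subunit of the mating pathway, was at 23.53 and 19.68 CPM in batch, 71.13 and 70.48 CPM in the mutant chemostat, 66.84 and 67.07 CPM in the libraries labelled micro-aerobic and 45.96 and 39.61 CPM in those labelled aerobic. It fell by 1.72 ± 0.16 in batch (adjusted p = 1.4e-06). SLN1, the osmosensor above HOG1, was at 30.91 and 33.67 CPM in batch, 91.99 and 49.61 CPM in the mutant chemostat and 32.04 to 47.06 CPM in the wild type. It fell by 1.13 ± 0.24 in batch (adjusted p = 0.00164), a change of -0.62 without chemostat replicate 1, the highest library.

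The 15 cell cycle, checkpoint and polarity kinases held 7 rises and 3 falls between the wild-type groups, no rise and 6 falls in batch, and 7 rises and 2 falls from the wild type labelled aerobic to the mutant chemostat. In the same order these are 46.7% and 20%, 0% and 40%, and 46.7% and 13.3%, beside 23.2% and 22.3%, 24.5% and 26.8%, and 31.3% and 29.4% of all genes. Between the wild-type groups there was 1 rise and 1 fall without micro-aerobic-labelled replicate 1, 4 and 2 without replicate 2, and 3 and 3 without replicate 1 of those labelled aerobic. In batch 3 fell without batch replicate 1, and from the wild type labelled aerobic to the mutant chemostat 5 fell without replicate 1 of the former. GIN4 (OPAR_004103, chromosome 6, 843518 to 846670, plus strand), which helps to build the septin ring at the bud neck, was at 86.3 and 56.37 CPM in the libraries labelled micro-aerobic, 38.52 and 52.87 CPM in those labelled aerobic, 88.19 and 97.43 CPM in batch and 179.9 and 138.1 CPM in the mutant chemostat. The chemostat libraries were above all the others. GIN4 was higher in the mutant chemostat than in the libraries labelled aerobic by 1.79 ± 0.21 (adjusted p = 9.2e-06) and than in those labelled micro-aerobic by 1.16 ± 0.20 (adjusted p = 0.00173), the largest rise of any member in both comparisons.

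The batch fall of GIN4 of 0.78 (adjusted p = 0.00541) was lost without chemostat replicate 1 (0.0625). CBK1, an NDR kinase of cell separation and polarity, was at 84.71 and 59.6 CPM in the mutant chemostat, 38.41 and 40.85 CPM in batch, 47.22 and 46.63 CPM in the libraries labelled micro-aerobic and 27.46 and 29.99 CPM in those labelled aerobic. It rose by 1.33 ± 0.19 from the wild type labelled aerobic to the mutant chemostat (adjusted p = 4.4e-05) and by 0.71 ± 0.19 between the wild-type groups (adjusted p = 0.00827), and fell by 0.86 ± 0.18 in batch (adjusted p = 0.00124).

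CDC28 (OPAR_005017, chromosome 7, 851420 to 852419, plus strand, 2 exons), the main cyclin-dependent kinase of division, was at 320.0 and 258.3 CPM in the libraries labelled aerobic, 170.8 and 165.0 CPM in those labelled micro-aerobic, 150.5 and 156.3 CPM in batch and 156.4 and 183.8 CPM in the mutant chemostat. The libraries labelled aerobic alone stood apart. CDC28 fell by 0.78 ± 0.14 from them to the libraries labelled micro-aerobic (adjusted p = 0.00055) and by 0.76 ± 0.14 to the mutant chemostat (adjusted p = 0.00043). KIN2, a kinase of polarized secretion, was at 243.7 and 237.5 CPM in the libraries labelled micro-aerobic and 151.9 and 142.5 CPM in the mutant chemostat, and its fall of 0.71 ± 0.16 between them (adjusted p = 0.00671) was lost without replicate 2 of the former (0.0638).

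Cyclins and other partners of these kinases were measured for 16 genes, of which none rose and 4 fell in batch, and 6 rose and 3 fell from the wild type labelled aerobic to the mutant chemostat. These are 0% and 25%, and 37.5% and 18.8%, beside 24.5% and 26.8%, and 31.3% and 29.4% of all genes. In the second comparison the PCL5 change of -0.36 (adjusted p = 0.0441) lost its call in 3 alternatives other than leaving out a library. The rises of PCL2 and PCL6 there, 0.74 and 0.49, were 0.37 and 0.25 without replicate 1 of the libraries labelled aerobic. PCL2, PCL5 and PCL6 were named after their values were seen. PCL1, a cyclin of PHO85, was at 186.9 and 122.8 CPM in the mutant chemostat, 45.12 and 53.96 CPM in batch, 65.56 and 59.09 CPM in the libraries labelled micro-aerobic and 20.79 and 29.35 CPM in those labelled aerobic. It rose by 2.62 ± 0.22 from the wild type labelled aerobic to the mutant chemostat (adjusted p = 3.1e-07) and fell by 1.64 ± 0.20 in batch (adjusted p = 1.9e-05). CDC14, the phosphatase that reverses the work of CDC28 at the end of mitosis, was at 139.8 and 131.7 CPM in the mutant chemostat and at 29.2 to 65.0 CPM elsewhere. It led the 11 measured protein phosphatases, of which none rose and 5 fell in batch (45.5%, beside 26.8% of all genes), with a rise of 2.17 ± 0.15 from the wild type labelled aerobic to the mutant chemostat (adjusted p = 4.5e-08) and a fall of 1.23 ± 0.14 in batch (adjusted p = 9.7e-06). Of these falls, those of PPH3 and CNB1 lost their call without either batch library or without chemostat replicate 1. That of CNA1 lost its call without batch replicate 2 or chemostat replicate 1. Without chemostat replicate 1 the change was -0.37 for CNA1 (-0.82 with all libraries), -1.05 for PPH3 (-1.14) and -0.50 for CNB1 (-0.61). PPH3 was low, at 2.841 and 3.499 CPM in batch and 7.477 and 6.632 CPM in the mutant chemostat, and its call was also lost with DESeq2. CNA1 and CMP2, another of the falls, each overlap another gene. CNA1 and CNB1 were named after their values were seen.

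KNS1 carried the largest batch change of all kinase genes. KNS1 (OPAR_003895, chromosome 6, 522238 to 524133, plus strand), the LAMMER kinase that in S. cerevisiae lowers RNA polymerase III activity when TOR complex 1 is inhibited, was at 174.8 and 164.0 CPM in batch, 631.8 and 760.4 CPM in the mutant chemostat, 699.0 and 891.0 CPM in the libraries labelled micro-aerobic and 721.8 and 731.2 CPM in those labelled aerobic. The 3 chemostat groups overlapped each other, and batch lay far below them. KNS1 fell by 2.04 ± 0.16, or 4.11-fold, in batch (adjusted p = 1.7e-07), and passed none of the comparisons between chemostats (adjusted p from 0.357 to 0.735).

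KNS1 belongs to 9 kinases of transcription and RNA, and it was the member of that class called in batch. CAK1, which activates cyclin-dependent kinases, was at 91.34 and 95.95 CPM in the libraries labelled aerobic and at 42.5 to 66.6 CPM elsewhere, and fell by 0.98 ± 0.16 to the mutant chemostat (adjusted p = 0.00016). SSN3, the kinase of the Mediator complex, was at 26.51 and 20.52 CPM in the libraries labelled aerobic and at 12.49 to 18.92 CPM elsewhere. Its fall of 0.75 between the wild-type groups (adjusted p = 0.0245) was lost without either library labelled micro-aerobic (0.0873 and 0.12) and without replicate 1 of those labelled aerobic (0.15). Its cyclin SSN8 fell by 1.39 ± 0.17 from the wild type labelled aerobic to the mutant chemostat (adjusted p = 1.3e-05).

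PHO85, a kinase that pairs with many cyclins and answers phosphate supply, was at 182.5 and 192.4 CPM in the libraries labelled micro-aerobic and at 120.3 to 167.1 CPM elsewhere. Its rise of 0.48 between the wild-type groups (adjusted p = 0.0195) was lost without either library labelled micro-aerobic (0.0667 and 0.109) and without replicate 1 of those labelled aerobic (0.15).

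The casein kinases and glycogen synthase kinases, 7 in all, include the most abundant kinase transcripts. RIM11 (OPAR_004849, chromosome 7, 601526 to 602701, minus strand) was at 519.7 and 586.6 CPM in the libraries labelled micro-aerobic, 468.0 and 381.9 CPM in those labelled aerobic, 317.3 and 522.7 CPM in the mutant chemostat and 221.4 and 190.6 CPM in batch. Batch was lowest, and the 2 chemostat libraries of the mutant spanned the range of the libraries labelled aerobic. RIM11 fell by 1.03 ± 0.20 in batch (adjusted p = 0.00083), and the change was -0.62 without chemostat replicate 2. MCK1, a second kinase of that family, showed another order, with 251.3 and 267.3 CPM in the libraries labelled aerobic, 153.8 and 153.6 CPM in those labelled micro-aerobic, 162.3 and 161.8 CPM in batch and 114.6 and 141.6 CPM in the mutant chemostat. MCK1 fell by 0.75 ± 0.14 between the wild-type groups (adjusted p = 0.00049) and by 1.02 ± 0.14 from the wild type labelled aerobic to the mutant chemostat (adjusted p = 2.7e-05).

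The batch rise of MCK1 of 0.34 had an adjusted p of 0.0496, which rose to 0.189 and 0.183 without either batch library, 0.217 without chemostat replicate 1 and 0.0808 and 0.0812 without either library labelled micro-aerobic. HRR25, the casein kinase 1 with many nuclear and membrane roles, was at 508.1 and 556.9 CPM in the libraries labelled micro-aerobic and at 289.7 to 412.7 CPM elsewhere. Its rise of 0.62 between the wild-type groups (adjusted p = 0.00632) was lost without replicate 2 of the former (0.0585) or replicate 1 of the latter (0.0528). YCK3, the casein kinase of the vacuole, was at 180.3 and 186.2 CPM in the libraries labelled micro-aerobic and at 117.3 to 142.2 CPM elsewhere, and its rise of 0.53 ± 0.13 (adjusted p = 0.00409) held without any 1 library.

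CKA1, a catalytic subunit of casein kinase 2, was at 184.4 and 134.5 CPM in the libraries labelled aerobic, 113.9 and 121.9 CPM in those labelled micro-aerobic, 100.2 and 95.33 CPM in batch and 72.02 and 88.78 CPM in the mutant chemostat. It fell by 0.98 ± 0.16 from the wild type labelled aerobic to the mutant chemostat (adjusted p = 0.00017). Its fall of 0.55 against the libraries labelled micro-aerobic (adjusted p = 0.0265) was lost without either of them (0.0794 and 0.191) and without chemostat replicate 1 (0.182).

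Among 6 stress, translation and trafficking kinases VPS15 changed most. VPS15 (OPAR_002450, chromosome 4, 797840 to 802154, plus strand) was at 56.28 and 48.19 CPM in the mutant chemostat, 22.73 and 18.63 CPM in batch, 36.21 and 29.7 CPM in the libraries labelled micro-aerobic and 26.51 and 23.99 CPM in those labelled aerobic. It fell by 1.34 ± 0.19 in batch (adjusted p = 5.5e-05) and rose by 1.05 ± 0.19 from the wild type labelled aerobic to the mutant chemostat (adjusted p = 0.00036). PRK1, a kinase of actin patches and endocytosis, had 70.94 and 53.23 CPM in the mutant chemostat and 30.13 to 39.14 CPM in the wild type. It rose by 0.84 ± 0.21 over the libraries labelled aerobic (adjusted p = 0.00357), while its rise of 0.88 over those labelled micro-aerobic (adjusted p = 0.00947) was lost without either of them (0.085 and 0.0576) and without chemostat replicate 1 (0.0964).

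IRE1, the kinase and ribonuclease that senses unfolded proteins in the endoplasmic reticulum, was at 189.4 CPM in replicate 2 of the libraries labelled aerobic and at 94.44 to 123.2 CPM in all the others. Its fall of 0.61 between the wild-type groups (adjusted p = 0.0143) had an adjusted p of 0.184 without that library and of 0.113 without replicate 2 of those labelled micro-aerobic. IKS1 was at 167.2 and 180.9 CPM in the libraries labelled aerobic, 125.1 and 148.8 CPM in those labelled micro-aerobic, 97.97 and 83.61 CPM in batch and 93.56 and 100.2 CPM in the mutant chemostat, and fell by 0.85 ± 0.14 from the wild type labelled aerobic to the mutant chemostat (adjusted p = 0.00017). No kinase gene carries the annotation of the translation kinase GCN2. GCN4, the transcription factor whose translation that kinase controls in S. cerevisiae, was at 4823 and 5527 CPM in the libraries labelled micro-aerobic and 2348 and 2800 CPM in the mutant chemostat, a fall of 1.01 ± 0.15 (adjusted p = 0.00053).

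The 17 genes in no class comprise 16 without an annotated homolog and FMP48, whose product is found with mitochondria in S. cerevisiae. In batch 8 of the 17 fell (47.1%, beside 26.8% of all genes) and none rose (beside 24.5%), with a median of -0.39. The falls were 5 without batch replicate 1 and 4 without batch replicate 2. FMP48 (OPAR_004932, chromosome 7, 729256 to 730530, minus strand) was at 165.2 and 168.0 CPM in batch, 412.3 and 347.4 CPM in the mutant chemostat, 332.8 and 380.3 CPM in the libraries labelled micro-aerobic and 415.9 and 442.8 CPM in those labelled aerobic. As with KNS1, both batch libraries lay far below the others. Unlike in KNS1, the libraries labelled aerobic overlapped no other group, though their lower value of 415.9 CPM is close to the 412.3 CPM of the mutant chemostat. FMP48 fell by 1.19 ± 0.14 in batch (adjusted p = 1e-05).

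OPAR_002929 (chromosome 5, 239850 to 241952, plus strand) had the largest rise of all members between the wild-type groups. It was at 63.17 and 56.22 CPM in the libraries labelled micro-aerobic, 20.79 and 28.88 CPM in those labelled aerobic, 41.37 and 50.03 CPM in batch and 91.7 and 72.07 CPM in the mutant chemostat. It rose by 1.26 ± 0.20 between the wild-type groups (adjusted p = 0.00018) and by 1.71 ± 0.20 from the wild type labelled aerobic to the mutant chemostat (adjusted p = 7.3e-06), and fell by 0.84 ± 0.18 in batch (adjusted p = 0.00191). OPAR_001448, which codes for 272 residues, was likewise highest in the mutant chemostat (38.76 and 39.17 CPM) and lowest in the libraries labelled aerobic (13.35 and 13.57 CPM). The libraries labelled micro-aerobic (22.97 and 26.83 CPM) and batch (23.87 and 23.27 CPM) overlapped. OPAR_001448 rose by 0.89 ± 0.20 between the wild-type groups (adjusted p = 0.00244).

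OPAR_004916 was at 68.27 and 79.69 CPM in the libraries labelled micro-aerobic, 28.6 and 40.87 CPM in those labelled aerobic, 43.76 and 50.03 CPM in batch and 61.29 and 56.51 CPM in the mutant chemostat, and rose by 1.08 ± 0.19 between the wild-type groups (adjusted p = 0.00032). OPAR_004824 (chromosome 7, 535824 to 539048, minus strand) went the other way, with 234.2 and 248.1 CPM in the libraries labelled aerobic and 79.9 to 122.0 CPM elsewhere. It fell by 1.08 ± 0.15 between the wild-type groups (adjusted p = 4.2e-05) and by 1.17 ± 0.14 from the wild type labelled aerobic to the mutant chemostat (adjusted p = 1.4e-05). OPAR_000342 was low everywhere, at 10.46 and 5.248 CPM in batch and 12.2 to 21.84 CPM elsewhere, and fell by 1.38 ± 0.30 in batch (adjusted p = 0.00181). OPAR_002198, which overlaps a neighbour by 1 bp, was at 28.34 and 17.95 CPM in the mutant chemostat and at 9.469 to 13.4 CPM in the wild type, and its rise of 1.04 over the libraries labelled aerobic (adjusted p = 0.00539) was lost without replicate 2 of these (0.0618) and without chemostat replicate 1 (0.0634).

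The comparisons between wild-type groups and between mutant groups share no library, and 18 kinase genes were called in both. In 15 of these (83.3%) the sign was opposite, as it was in 79.1% of the 1432 genes called in both over the whole table. Of the 18, 13 were higher in the libraries labelled micro-aerobic than in those labelled aerobic and lower in batch than in the mutant chemostat, among them SNF1, TPK2, PSK2, KSP1, CBK1, GIN4, the cell wall relay kinase BCK1, the checkpoint kinase CHK1 and the aurora kinase IPL1. KSS1 and MCK1 did the reverse. NPR1 was higher in both comparisons, and MEK1, a kinase of meiotic recombination in S. cerevisiae, and OPAR_004824 were lower in both. These patterns were not counted by direction over all genes, so whether the split is particular to kinases was not tested. Both calls held in every fit without 1 library for 4 of the 13, namely SNF1, TPK2, CBK1 and OPAR_002929. BCK1, CHK1, IPL1 and MEK1 were named after their values were seen. MEK1 was low throughout, at 2.974 to 12.31 CPM over the 8 libraries, and its lowest count was 28. The MEK1 fall of 1.13 between the wild-type groups (adjusted p = 0.0154) was lost without either library labelled micro-aerobic (0.0804 and 0.0679) or replicate 2 of those labelled aerobic (0.133), and its batch fall of 1.14 (adjusted p = 0.0107) without either batch library (0.052 and 0.0875) or chemostat replicate 2 (0.0598). The batch fall of OPAR_004824 of 0.39 (adjusted p = 0.0356) was lost without either batch library (0.221 and 0.139), chemostat replicate 2 (0.256), either library labelled micro-aerobic (0.0591 and 0.0592) or replicate 1 of those labelled aerobic (0.0509).

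**Figure D5:**
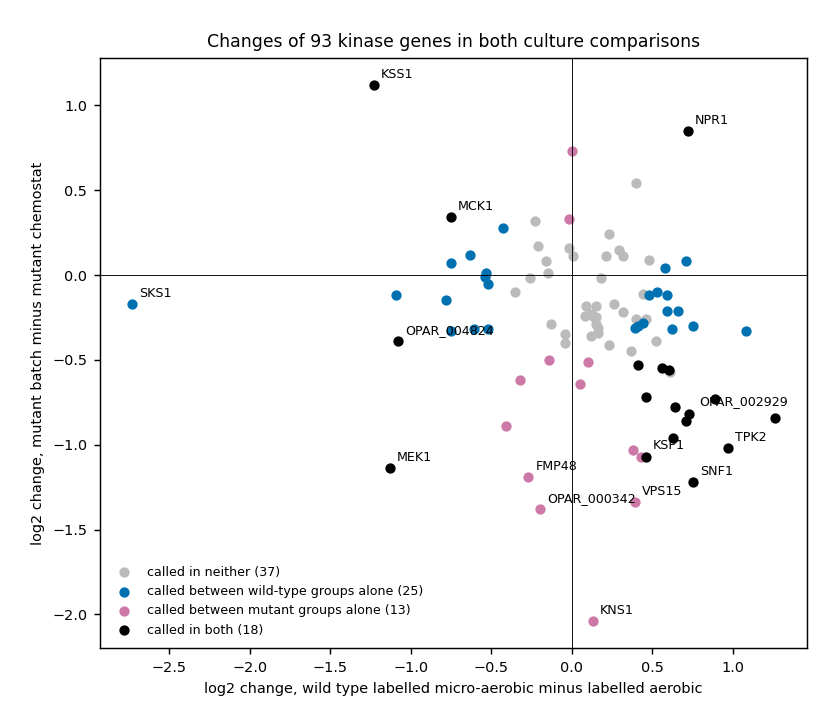
log2 change of each of the 93 kinase genes between the wild-type groups (horizontal) and between the mutant groups (vertical), coloured by the comparison in which it was called. Black points mark the 18 genes called in both: 13 lie at the lower right, KSS1 and MCK1 at the upper left, NPR1 at the upper right, and MEK1 and OPAR_004824 at the lower left.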

How the data were processed

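The authors deposited raw counts of read pairs per gene without normalization, made, per the file headers, with featureCounts on gene features counting pairs whose ends both map, leaving chimeric pairs out and ignoring strand. Tools given in the submitters' processing notes are edgeR 3.28.1, featureCounts 1.6.0, SAMtools 1.3.1 and Bowtie 1.2.1.1. Coordinates are those of the deposited annotation of strain DL-1; the genome build is otherwise not given in the sources used here. Homologs came from the S. cerevisiae column of a table of log2 fold changes that the authors deposited, whose values were not used. The count table holds 4 further columns, not used here.

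The 8 libraries were grouped by their labels and fitted together in edgeR 4.0.16 (R 4.3.3): filterByExpr kept 5265 genes, TMM factors ran from 0.859 to 1.12, and the quasi-likelihood F test was two-sided with Benjamini-Hochberg adjustment over all of them at 0.05 (4 residual degrees of freedom). Every adjusted p in the text is from this test. SE is the size of the log2 change divided by the root of F. The code was tested on simulated data. The text of the series names 2 biological replicates without more, so the p-values cover the spread of these libraries, which may be technical. The classes, partner lists and members were chosen with earlier results of these data known. Named members are the 8 largest called rises and falls per comparison among genes with at least 10 CPM in a group and no overlap of libraries, a list of well-known kinases, and the 5 highest and 3 lowest by level; up to 3 called partners per list were eligible. FMP48 received its symbol, and ERG11 and CIT1 were chosen, after values were seen. Alternatives were other scalings (RLE, upper quartile), no filter, DESeq2 1.42.0, the 4 compared libraries alone, a replicate block, leaving out overlapping genes and leaving out each library.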

Additional observations from a re-analysis of the deposited data

How the results depend on the processing

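Leaving out a library moved the counts of calls over all genes. Counts of called kinase genes moved most when a library was left out. Between the wild-type groups 21 to 49 were called (12 to 32 higher, 9 to 18 lower). Between mutant batch and chemostat it was 20 to 40 (3 to 7 higher, 17 to 34 lower), between the mutant chemostat and the wild type labelled aerobic 43 to 49 (23 to 31 higher, 17 to 24 lower), and between the mutant chemostat and the wild type labelled micro-aerobic 2 to 38 (1 to 15 higher, 1 to 23 lower). With upper quartile normalization 5 were lower in the last of these, where 8 were lower with TMM. The titles of both mutant groups share 2 run codes whose meaning is not stated, so pairing is not established. A replicate block on them left 3 of 5 rises in batch. The block set all wild-type libraries together with mutant replicate 1. In comparisons of mutant and wild type it is therefore no adjustment for replicate. All other counts under RLE or upper quartile scaling, no filter, DESeq2, the 4 compared libraries, the block or without overlapping genes stayed within 1.5 times the reported ones. Over 48 named genes, 4 comparisons and these settings other than leaving out overlapping genes, 2688 values gave no reversal of a called sign, 174 lost calls and 49 gained ones. With 2 libraries a group, a kinase gene that was not called may still differ.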
